A study of Mus musculus with 9 samples.

Results

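The chemokines described here are 10 genes that epithelial cells are known to make, *Cxcl1*, *Cxcl5*, *Cxcl10*, *Cxcl12*, *Cxcl16*, *Cx3cl1*, *Ccl2*, *Ccl5*, *Ccl7* and *Ccl20*. They were taken by name from a table of RNA-seq counts for 55228 genes, and all 10 were found in it. The cultures were HC11, an immortalised line of mouse mammary epithelial cells that serves as a model of lactogenic differentiation. There were 3 cultures each of parental cells (*WT*) and of 2 lines in which *Vangl2*, a planar cell polarity gene, was targeted with CRISPR/Cas9 and a repair template that carries stop codons (*KD1* and *KD2*, called knockouts 1 and 2 in the labels). All 9 cultures were undifferentiated, 90% confluent and without any treatment, in RPMI-1640 with 10% fetal bovine serum, 5 µg/mL insulin and 10 ng/mL EGF, which is also what the *WT* cells received. Each *KD* line was grown from a single colony and made with its own guide, so the effect of targeting *Vangl2* and the difference between one cloned line and a mixed parental population cannot be told apart. A clone taken through the same procedure without a guide was not analysed here.

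Chemokines are small secreted proteins that direct the migration of leukocytes by binding G protein-coupled receptors, and they are held on cell surfaces and matrix by heparan sulfate. They are named by the spacing of their first cysteines, as CXC, CC or CX3C ligands. Epithelial cells at a barrier make little of the inflammatory ligands at rest and switch them on through NF-κB after signals such as IL-1, TNF or bacterial products, while interferons act through the interferon-stimulated response element. Other ligands, such as *Cxcl12*, are made without a stimulus, most of all by stromal cells. In the mammary gland, chemokines call macrophages and other leukocytes that take part in duct growth and in the remodelling after lactation.

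The libraries held 19231428 to 28360592 counts each, and 15253 genes passed the filter on low counts and were tested. *Vangl2* had 66, 99 and 86 counts in *WT*, 75, 48 and 69 in *KD1* and 90, 118 and 90 in *KD2*, and counts over a whole gene do not tell an edited transcript from an unedited one. By a chi-square test over genes, divided by its degrees of freedom, replicates of *KD1* differed by 1.37 to 1.81. In *WT*, replicates 2 and 3 differed by 3.38, while replicate 1 differed from them by 13.1 and 10.7. In *KD2*, replicates 1 and 2 differed by 1.74, while replicate 3 stood apart at 17.4 and 22.1. Without it, the log2 fold change of no chemokine in *KD2* other than *Ccl7*, for which only a lower bound is given, moved by more than 0.115. Of 9 epithelial markers, 8 had more than 3 counts in at least 1 culture of every line, and the exception, *Krt19*, was at 0 in every culture. Nothing in the labels says that the cultures of a line were started apart, so p-values measure the spread between these cultures, which may be technical.

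Expression is given as CPM, reads of a gene per 1000000 reads of the library, with library sizes adjusted by the TMM method, and folds come from the quasi-likelihood test of edgeR, with p-values adjusted over all genes tested. A gene is said to have risen or fallen where the adjusted p was under 0.05, and to be called where the absolute log2 fold change was also above 1. In *KD1*, 6 of the 10 chemokines were called higher than in *WT* (*Cxcl1*, *Cxcl5*, *Cxcl10*, *Cxcl16*, *Ccl2* and *Ccl5*), where 9.34% of all genes tested were, and 2 were called lower (*Cxcl12* and *Ccl20*), where 7.49% were. The same 8 passed the adjusted p alone, which 26.9% of all genes did upward and 30.0% downward. In *KD2*, 7 were called higher than in *WT* (*Cxcl5*, *Cxcl10*, *Cxcl12*, *Ccl2*, *Ccl5*, *Ccl7* and *Ccl20*) against 14.5% of all genes, and 0 lower against 6.71%. On the adjusted p alone all 10 rose in *KD2*, which 34.0% of all genes did, while 33.3% fell. Only 5 of the chemokines, *Cxcl1*, *Cxcl5*, *Cxcl12*, *Cxcl16* and *Cx3cl1*, reached the limit of the filter in all 9 cultures. Of the rest, *Cxcl10* and *Ccl5* reached it in no *WT* culture, *Ccl2* and *Ccl7* only in *KD2*, and *Ccl20* in 2 *WT* cultures, no *KD1* culture and all 3 of *KD2*, so genes that enter the test through the line where they are high weigh on these counts. The plot of CPM by culture shows every value.

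**Figure D1:**
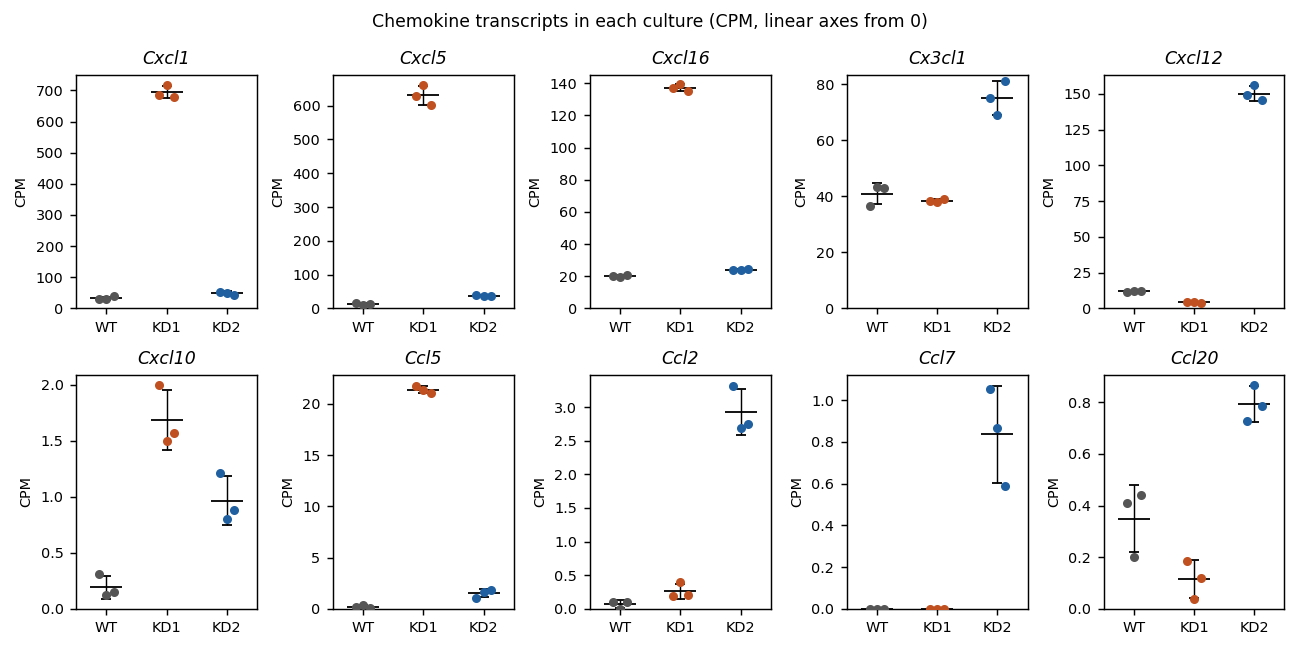
CPM of each of the 10 chemokines (y axis, linear and starting at 0, with its own range in each panel) in the 3 cultures of *WT*, *KD1* and *KD2* (x axis). Points are cultures, and the bar and whiskers are their mean and SD. *Cxcl1*, *Cxcl5*, *Cxcl16* and *Ccl5* stand highest in *KD1*, and *Cxcl12*, *Cx3cl1*, *Ccl2*, *Ccl7* and *Ccl20* in *KD2*.

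*Cxcl1* and *Cxcl5* encode CXC ligands of the neutrophil receptor CXCR2. They gave the most counts of the 10 in *KD1*. *Cxcl1* (ENSMUSG00000029380, GRCm38 chr5:90891241-90893115, plus strand) had 30.4, 29.4 and 38.9 CPM in *WT*, 687, 716 and 679 CPM in *KD1*, and 54.0, 50.6 and 44.5 CPM in *KD2*. The 3 lines did not overlap, and *KD1* stood far above the rest. The means were 32.9 ± 5.22 CPM in *WT* (SD, n = 3), 694 ± 19.9 CPM in *KD1* and 49.7 ± 4.79 CPM in *KD2*. *Cxcl1* rose 21.1-fold in *KD1*, a log2 fold change of 4.40 (SE 0.105, adjusted p = 3.8e-13, edgeR), and 1.51-fold in *KD2*, a log2 fold change of 0.60 (SE 0.0986, adjusted p = 1.1e-04). The *KD2* rise was below the size needed for a call. In the direct comparison *Cxcl1* was 13.9-fold lower in *KD2* than in *KD1* (adjusted p = 5.9e-13).

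*Cxcl5* (ENSMUSG00000029371, chr5:90759360-90761624, plus strand) had 15.8, 11.4 and 14.4 CPM in *WT*, 627, 660 and 603 CPM in *KD1*, and 39.0, 36.9 and 38.0 CPM in *KD2*. Its lines kept the same order as those of *Cxcl1*, again without overlap. *Cxcl5* rose 45.6-fold in *KD1* (log2 fold change 5.51, SE 0.100, adjusted p = 3.1e-14, edgeR) and 2.75-fold in *KD2* (log2 fold change 1.46, SE 0.0947, adjusted p = 1.2e-08), and it was 16.6-fold lower in *KD2* than in *KD1* (adjusted p = 1.1e-13). In counts, *Cxcl5* went from 286 to 309 in *WT* libraries to 14960 to 16996 in *KD1* libraries. Of the windows of 50 bases in its exons, 0.693% also occur in other genes, and *Cxcl1* shares none.

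Both genes lie on chromosome 5 among other CXC ligands, in the order *Cxcl5*, *Ppbp*, *Pf4*, *Cxcl3*, *Cxcl15*, *Cxcl1* and *Cxcl2*. *Cxcl3* and *Cxcl2* encode further CXCR2 ligands, and *Ppbp* and *Pf4* encode chemokines best known from platelets. *Cxcl3* had 9, 13 and 9 counts in *WT*, 1374, 1429 and 1259 in *KD1* and 93, 123 and 96 in *KD2*. *Cxcl2*, which starts 10.8 kb after the end of *Cxcl1*, had 5, 11 and 4 counts in *WT*, 808, 721 and 751 in *KD1* and 12, 26 and 14 in *KD2*. *Ppbp* had 3, 4 and 6 counts in *WT*, 160, 147 and 168 in *KD1* and 6, 8 and 1 in *KD2*. In *KD1*, then, *Cxcl3* (109-fold, adjusted p = 6.3e-14, edgeR), *Cxcl2* (94.4-fold, adjusted p = 1.2e-12) and *Ppbp* (30.0-fold, adjusted p = 2.8e-09) rose as well. In *KD2*, *Cxcl3* rose 8.66-fold (adjusted p = 4.8e-09) and *Cxcl2* 2.23-fold (adjusted p = 0.0073), while for *Ppbp* the log2 fold change was -0.01 (SE 0.527, adjusted p = 0.998). The cluster was not raised throughout: *Pf4*, between *Ppbp* and *Cxcl3*, was at 0 in all 9 libraries, and *Cxcl15* was at 0 in all but *KD2* replicate 1, which had 3 counts. A count of 0 allows up to 3 counts, or 0.0999 to 0.154 CPM in these libraries. Genes of other kinds within 2 Mb of *Cxcl1*, 30 of which were tested, had a median log2 fold change of -0.10 in *KD1* and -0.38 in *KD2*, against -0.03 and 0.01 over all genes. Of these 30, 4 were called higher and 3 lower in *KD1*, beside 9.34% and 7.49% of all genes. In *KD2*, 2 were called higher and 9 lower, beside 14.5% and 6.71%.

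**Figure D2:**
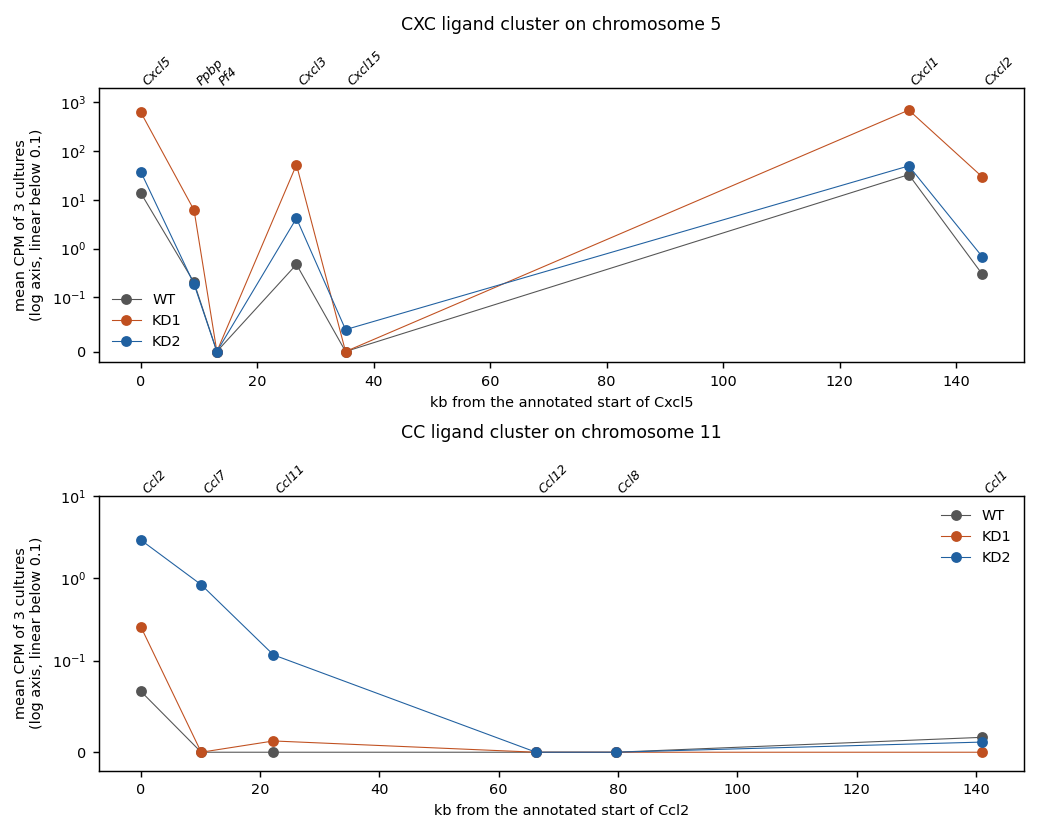
Mean CPM of 3 cultures (y axis, logarithmic, linear below 0.1) for the ligand genes of 2 clusters, against the distance of each gene in kb from the annotated start of the leftmost one (x axis). Lines join the genes of *WT* (grey), *KD1* (orange) and *KD2* (blue). On chromosome 5, *KD1* lies highest at *Cxcl5*, *Ppbp*, *Cxcl3*, *Cxcl1* and *Cxcl2*, with *Pf4* at 0 in between. On chromosome 11, *KD2* lies highest at *Ccl2* and *Ccl7*, and *Ccl12* and *Ccl8* are at 0.

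*Cxcl10* encodes a ligand of CXCR3, the receptor of activated T cells, and is a classic target of interferons. It was rare in every line. *Cxcl10* (ENSMUSG00000034855, chr5:92346638-92348889, minus strand) had 6, 3 and 3 counts in *WT*, 54, 38 and 39 in *KD1* and 30, 24 and 18 in *KD2*, or 0.191 ± 0.101, 1.69 ± 0.268 and 0.966 ± 0.218 CPM (SD, n = 3 each). No culture of one line reached into the range of another. The rise was 8.92-fold in *KD1* (log2 fold change 3.16, SE 0.340, adjusted p = 2.5e-06, edgeR) and 5.08-fold in *KD2* (log2 fold change 2.35, SE 0.377, adjusted p = 8.4e-05), and *KD2* was 1.76-fold below *KD1* (log2 fold change -0.81, adjusted p = 0.0076), a difference that was called without *KD2* replicate 1 (log2 fold change -1.01). Its neighbours *Cxcl9* and *Cxcl11* encode the other CXCR3 ligands. *Cxcl9* had at most 1 count in any library, and *Cxcl11* had 0 in *WT* and *KD1* and 3, 5 and 5 in *KD2*, so neither was tested. *Cxcl10* overlaps *Art3* on the other strand, with which it shares 3.59% of its windows, but *Art3* had at most 5 counts in any library.

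The start regions of 5 of the 10 genes, *Cxcl1*, *Cxcl10*, *Cxcl12*, *Cx3cl1* and *Ccl20*, were matched in a table of RefSeq promoters of GRCm38.p6, which runs from 250 bases before each start to 50 after it. They were searched on both strands for GGGANNTTC, a narrow form of the core of the NF-κB element, for GAAANNGAA, the core of the interferon-stimulated response element, and for TTCNNNGAA, the STAT element. Matches were found in *Cxcl1* and *Cxcl10* only. Their stretches are shown because they hold the matches and these genes stand for the NF-κB and interferon classes of ligand, and capitals mark the matching letters. The *Cxcl1* stretch is chr5:90891125-90891244 on the plus strand, positions -120 to -1 from the RefSeq start, and the *Cxcl10* stretch is chr5:92349020-92349139 read on the minus strand, positions -250 to -131 from it.
Cxcl1: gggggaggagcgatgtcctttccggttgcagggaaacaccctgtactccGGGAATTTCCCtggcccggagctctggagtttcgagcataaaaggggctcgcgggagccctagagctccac
Cxcl10: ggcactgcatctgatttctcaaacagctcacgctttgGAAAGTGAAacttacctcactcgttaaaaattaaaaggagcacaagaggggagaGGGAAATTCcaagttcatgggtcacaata

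In *Cxcl1* the NF-κB core was matched on both strands by overlapping letters, at positions -71 to -63 and -69 to -61, where -1 is the last base before the start. In *Cxcl10* it was matched once, at -159 to -151, and the interferon core at -213 to -205. Of 32851 promoters of this length in the table, 3.94% hold the NF-κB core, 8.56% the interferon core and 8.3% the STAT element, the last of which is in none of the 5. A match is a run of letters in this window. Other forms of these elements were not searched for, so sites may be missed, and binding of any factor was not measured.

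*Cxcl12* encodes the ligand of CXCR4 and of the scavenging receptor ACKR3, and it retains progenitor cells and leukocytes in tissues. It fell in one *KD* line and rose in the other. *Cxcl12* (ENSMUSG00000061353, chr6:117168535-117181367, plus strand) had 11.5, 11.9 and 12.5 CPM in *WT*, 4.61, 4.36 and 3.79 CPM in *KD1*, and 149, 156 and 146 CPM in *KD2*. The lines did not overlap. Against *WT*, *Cxcl12* was 2.81-fold lower in *KD1* (log2 fold change -1.49, SE 0.0905, adjusted p = 5.8e-09, edgeR) and 12.5-fold higher in *KD2* (log2 fold change 3.65, SE 0.0719, adjusted p = 3.3e-13). *KD2* was 35.2-fold above *KD1* (log2 fold change 5.14, SE 0.0806, adjusted p = 1.1e-14), more than for any other of the 9 chemokines with a fitted fold. Of 39 other genes tested within 2 Mb of *Cxcl12*, 9 were called higher and 0 lower in *KD2* than in *WT*, beside 14.5% and 6.71% of all genes, with a median log2 fold change of 0.46 beside 0.01 over all genes. In *KD1*, 4 were called higher and 4 lower, with a median of 0.18 beside -0.03.

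Of the fibroblast markers, some moved with *Cxcl12* and others did not. The summed level of 9 such genes ran from 17.0 to 23.0 CPM over *WT* cultures, from 8.07 to 10.1 CPM over *KD1* and from 90.1 to 99.9 CPM over *KD2*, with 4, 6 and 3 of the 9 at or under 3 counts. Most of the *KD2* sum was *Pdgfrb*, a growth factor receptor of stromal and mural cells, with 11, 22 and 21 counts in *WT*, 4, 5 and 2 in *KD1*, and 1572, 1929 and 1475 in *KD2*. *Pdgfra* and *Col1a2* rose in *KD2* as well. The fibrillar collagen gene *Col1a1* went the other way from *Cxcl12* in *KD2*, where it fell by 0.71 on the log2 scale (adjusted p = 0.0019, edgeR), and *Col3a1* had a log2 fold change of -0.17 there (adjusted p = 0.43). Both were called lower in *KD1*. The genes *Dcn*, *Lum*, *Thy1* and *Dpt* had at most 6 counts in any library. Over the same cultures the sum of the 9 epithelial markers ran from 4882 to 5463 CPM over *WT* cultures, from 5539 to 5679 CPM over *KD1* and from 2943 to 3645 CPM over *KD2*. More cells of a kind and more RNA per cell cannot be told apart in such libraries, and the part of these markers in the *Cxcl12* levels was not tested.

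**Figure D3:**
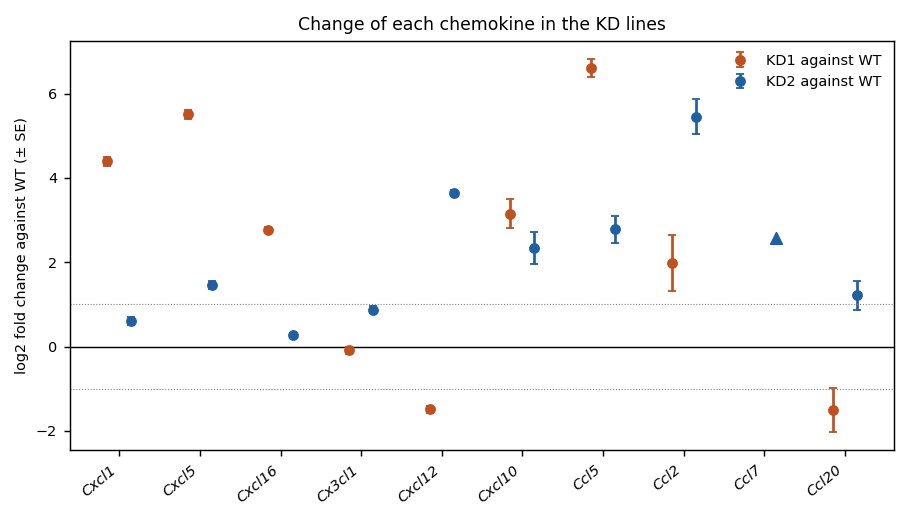
Log2 fold change against *WT* (y axis, with whiskers of 1 SE from edgeR) of each chemokine (x axis) in *KD1* (orange) and *KD2* (blue), which share the same *WT* cultures. Dotted lines mark a log2 fold change of 1 in either direction, and the triangle at *Ccl7* is a lower bound of 5.97-fold, since *WT* had no count. *Cxcl12* and *Ccl20* lie below the lower dotted line in *KD1* and above the upper one in *KD2*.

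*Cxcl16* and *Cx3cl1* encode the transmembrane chemokines, which act as adhesion molecules at the cell surface and are released by the proteases ADAM10 and ADAM17. *Cxcl16* (ENSMUSG00000018920, chr11:70453983-70459984, minus strand) had 20.2, 19.3 and 20.6 CPM in *WT*, 137, 139 and 135 CPM in *KD1*, and 23.6, 24.2 and 24.3 CPM in *KD2*. The cultures of each line lay close together, and *KD1* was the high line. *Cxcl16* rose 6.85-fold in *KD1* (log2 fold change 2.78, SE 0.0587, adjusted p = 1.1e-13, edgeR) and by 0.26 on the log2 scale in *KD2* (SE 0.0608, adjusted p = 0.0016), and *KD2* was 5.70-fold below *KD1* (adjusted p = 1.2e-13). *Cxcl16* overlaps *Zmynd15* on the other strand and shares 16.9% of its windows with it, and how the counting treated strand is not given in the sources used here. *Zmynd15* had 22, 30 and 22 counts in *WT*, 145, 164 and 150 in *KD1* and 93, 116 and 97 in *KD2*, where *Cxcl16* had 395 to 483, 3354 to 3710 and 494 to 727. The counts on the partner were fewer in every line, but *Zmynd15* was called higher in both *KD* lines (5.21-fold and 3.60-fold). From *WT* to *KD2* the mean of *Cxcl16* went from 20.1 to 24.0 CPM and that of *Zmynd15* from 1.13 to 4.13 CPM. The part of the overlap in the *Cxcl16* levels was not tested.

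*Cx3cl1* (ENSMUSG00000031778, chr8:94772009-94782427, plus strand) encodes fractalkine, the ligand of CX3CR1 on monocytes and microglia. It had 36.5, 43.2 and 42.8 CPM in *WT*, 38.3, 38.0 and 38.9 CPM in *KD1*, and 75.1, 69.1 and 81.2 CPM in *KD2*. *KD1* lay within the range of *WT*, and all *KD2* cultures lay above both. The log2 fold change in *KD1* was -0.09 (SE 0.0785, adjusted p = 0.34, edgeR), which misses the threshold and does not show that the lines were equal. In *KD2* the gene rose 1.83-fold (log2 fold change 0.88, SE 0.0770, adjusted p = 2.5e-07), and it was 1.95-fold higher in *KD2* than in *KD1* (adjusted p = 6.8e-08). Both differences fell short of a call by size, but the one between the *KD* lines was called with library size alone (log2 fold change 1.09), with at least 10 counts in every culture (1.00) and without *KD2* replicate 2 (1.02).

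*Ccl5* encodes RANTES, a chemokine that attracts T cells and monocytes. *Ccl5* (ENSMUSG00000035042, chr11:83525778-83530518, minus strand) had 4, 8 and 2 counts in *WT*, 589, 543 and 522 in *KD1*, and 27, 49 and 37 in *KD2*. In CPM these were 0.207 ± 0.111, 21.4 ± 0.347 and 1.51 ± 0.378 (SD, n = 3 each), again without overlap. *Ccl5* rose 97.1-fold in *KD1* (log2 fold change 6.60, SE 0.214, adjusted p = 7.2e-12, edgeR) and 6.86-fold in *KD2* (log2 fold change 2.78, SE 0.327, adjusted p = 4.5e-06), and *KD2* was 14.2-fold below *KD1* (adjusted p = 3.5e-11). Because *Ccl5* is also a product of T cells and macrophages, the leukocyte markers were read beside it. *Ptprc*, the common leukocyte antigen, had at most 2 counts in any library, and *Adgre1* and *Tyrobp* had 0 in all 9. Other macrophage markers were higher in *KD1*: *Cd68* rose 1.86-fold (adjusted p = 0.0016, edgeR) and *Cd14* 1.69-fold (adjusted p = 2.2e-05), and *Csf1r*, which was not tested, had 1, 2 and 2 counts in *WT* and 13, 6 and 7 in *KD1*. The sum of 12 leukocyte markers ran from 10.2 to 12.9 CPM over *WT* cultures, from 19.0 to 21.3 CPM over *KD1* and from 23.9 to 28.5 CPM over *KD2*, with 9, 8 and 7 of the 12 at or under 3 counts. *Cd14* and *Lyz2* were called higher in *KD2* than in *WT*, and *Lyz2* had 1, 1 and 0 counts in *WT*, 0 in *KD1* and 31, 41 and 27 in *KD2*. The part of these markers in the *Ccl5* levels was not tested.

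*Ccl2* and *Ccl7* encode ligands of CCR2 that call monocytes, and they are neighbours on chromosome 11. *Ccl2* (ENSMUSG00000035385, chr11:82035571-82037453, plus strand) had 2, 0 and 2 counts in *WT*, 5, 10 and 5 in *KD1*, and 82, 81 and 56 in *KD2*. *Ccl7* (ENSMUSG00000035373, chr11:82045712-82047525, plus strand) had 0 counts in every *WT* and *KD1* library, and 26, 26 and 12 in *KD2*. These transcripts were thus seen above 10 counts in *KD2* alone. With so few counts in *WT*, the level of *Ccl2* is given as a ratio of pooled counts, 47.4 in *KD2* (95% exact interval from counting alone 18.2 to 175, adjusted p = 6.1e-08, edgeR) and 4.20 in *KD1* (1.41 to 16.9, adjusted p = 0.022). *Ccl7* was at least 5.97-fold higher in *KD2* than in *WT* (adjusted p = 3.3e-05) and at least 7.17-fold higher than in *KD1* (adjusted p = 1.9e-05), against the 3 counts per library that a 0 allows, and *Ccl2* was 11.1-fold higher in *KD2* than in *KD1* (adjusted p = 1.8e-07). The *KD1* rise of *Ccl2* was lost without *WT* replicate 2, the library with 0 counts (log2 fold change 1.35, adjusted p = 0.092), and without *KD1* replicate 2, the one with 10 (log2 fold change 1.57, adjusted p = 0.096). Without *WT* replicate 2 the fitted log2 fold change of *Ccl2* in *KD2* went from 5.45 to 4.82.

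Next in the cluster, *Ccl11* had 0 counts in *WT*, 1, 0 and 0 in *KD1* and 3, 4 and 2 in *KD2*, and *Ccl12* and *Ccl8* were at 0 in all 9 libraries. Among 36 genes of other kinds tested within 2 Mb of *Ccl2*, the medians on the log2 scale were 0.12 (*KD1*) and 0.04 (*KD2*). In each *KD* line, 7 of them were called higher than in *WT* and 1 lower. Over all genes, 9.34% and 7.49% were in *KD1*, and 14.5% and 6.71% in *KD2*. The fibroblast and leukocyte marker sums given above were highest in *KD2*, as *Ccl2* and *Ccl7* were, and their part in these levels was not tested.

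*Ccl20* encodes the ligand of CCR6 on dendritic cells and T helper 17 cells, and it is made by epithelia exposed to bacteria or IL-17. *Ccl20* (ENSMUSG00000026166, chr1:83116766-83119167, plus strand) had 8, 5 and 9 counts in *WT*, 5, 1 and 3 in *KD1* and 18, 26 and 16 in *KD2*, or 0.350 ± 0.131, 0.115 ± 0.0728 and 0.793 ± 0.0692 CPM (SD, n = 3 each). It was rare everywhere, lowest in *KD1* and highest in *KD2*. The log2 fold change was -1.51 in *KD1* (SE 0.512, adjusted p = 0.022, edgeR), 1.22 in *KD2* (SE 0.347, adjusted p = 0.0068) and 2.72 between the lines (SE 0.417, adjusted p = 4.9e-05). The fall in *KD1* rested on single libraries: the adjusted p was 0.070 without *WT* replicate 1, 0.094 without *WT* replicate 3, 0.090 without *KD1* replicate 2 and 0.053 without *KD1* replicate 3. Without *WT* replicate 2, the log2 fold change in *KD2* was 0.92 (adjusted p = 0.044), under the size of a call. With DESeq2 in place of edgeR, neither difference from *WT* passed (adjusted p = 0.064 in *KD1* and 0.056 in *KD2*).

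The direct comparison of the *KD* lines tests whether their differences from the shared *WT* cultures were unequal. In it, 4 of the 10 were called higher in *KD2* (*Cxcl12*, *Ccl2*, *Ccl7* and *Ccl20*), where 14.7% of all genes were, and 4 lower (*Cxcl1*, *Cxcl5*, *Cxcl16* and *Ccl5*), where 8.58% were. *Cx3cl1*, higher in *KD2*, and *Cxcl10*, lower, passed the adjusted p without the size of a call. On the adjusted p alone, 5 were thus higher in *KD2* and 5 lower, against 34.8% and 33.0% of all genes. Those higher in *KD1* were thus *Cxcl1*, *Cxcl5*, *Cxcl10*, *Cxcl16* and *Ccl5*, and those higher in *KD2* were *Cxcl12*, *Cx3cl1*, *Ccl2*, *Ccl7* and *Ccl20*. The other CXCR2 ligands *Cxcl2* and *Cxcl3*, like *Cxcl1* and *Cxcl5*, were called lower in *KD2* (log2 fold changes -5.41 and -3.66). *Ccl2* and *Ccl7*, the ligands of CCR2, were both higher there. Of the CXCR3 ligands, *Cxcl10* was lower in *KD2*, while *Cxcl11*, too rare to be tested, had 0 counts in *KD1* and 3, 5 and 5 in *KD2*. Whether the split follows receptors was not tested.

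Divided by the merged exon length, the 10 transcripts summed to 44.1 ± 3.71 CPM per kb in *WT* (SD, n = 3), 787 ± 26.3 CPM per kb in *KD1* and 98.5 ± 2.41 CPM per kb in *KD2*. The sum ranged from 41.2 to 48.3 over the *WT* cultures, from 764 to 816 over *KD1* and from 96.7 to 101 over *KD2*. This length merges the exons of all annotated transcripts of a gene, which for *Cxcl1* and *Cxcl10* form 1 block (1875 and 2252 bases). It can exceed the length of the transcripts present, so the orders and shares between genes given below are approximate. *Cxcl1* led in each line, with 17.6 CPM per kb in *WT*, 370 in *KD1* and 26.5 in *KD2*. In *WT* it was followed by *Cx3cl1* at 10.4, *Cxcl5* at 7.46, *Cxcl16* at 6.64 and *Cxcl12* at 1.47 CPM per kb, and the *Cxcl5* and *Cxcl16* cultures overlapped. The other 5 were at 0.246 CPM per kb or less in *WT* and overlapped one with the next. In *KD1* the order after *Cxcl1* was *Cxcl5* at 338, *Cxcl16* at 45.4, *Ccl5* at 22.3 and *Cx3cl1* at 9.77 CPM per kb, and no neighbours in the order overlapped. In *KD2*, *Cxcl5* at 20.4, *Cx3cl1* at 19.1 and *Cxcl12* at 18.4 CPM per kb came after *Cxcl1*, each overlapping the next, and *Cxcl16* followed at 7.96.

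The mixture of ligands also differed between the lines. In *WT* the mean shares of the sum were 39.6% *Cxcl1*, 23.6% *Cx3cl1*, 16.9% *Cxcl5* and 15.1% *Cxcl16*. In *KD1*, *Cxcl1* (46.8 to 47.4% per culture) and *Cxcl5* (42.4 to 43.4%) left 5.77% for *Cxcl16*, 2.83% for *Ccl5* and 1.24% for *Cx3cl1*. *KD2* was the most even line, with 26.9% *Cxcl1*, 20.7% *Cxcl5*, 19.4% *Cx3cl1*, 18.7% *Cxcl12* and 8.09% *Cxcl16*. *Cxcl12* took 3.34% of the sum in *WT* and 0.0661% in *KD1*. These shares depend on one another, since a rise of *Cxcl1* lowers the share of every other gene.

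**Figure D4:**
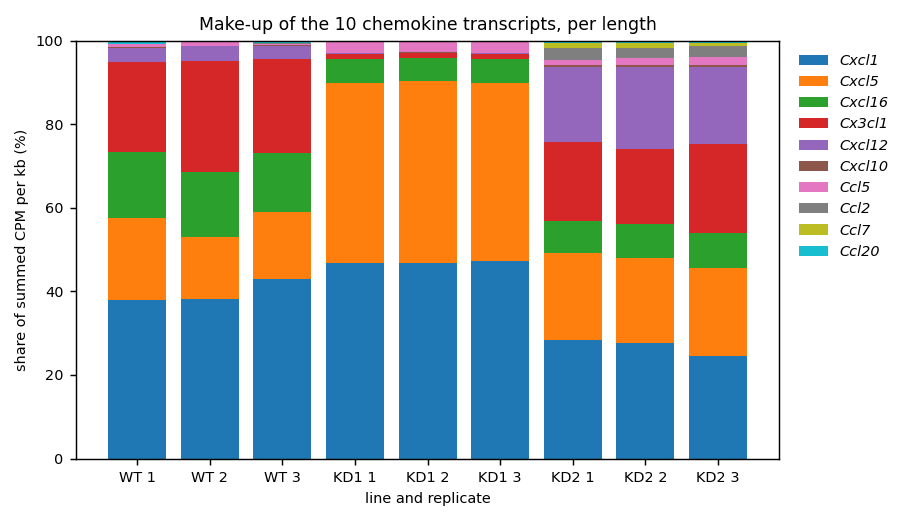
Share of each chemokine in the summed CPM per kb of all 10 (y axis, percent) in each of the 9 cultures (x axis, line and replicate). Each bar adds up to 100%. *Cxcl1* and *Cxcl5* fill most of the *KD1* bars, and *Cxcl12* and *Cx3cl1* are broad in the *KD2* bars.

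Among the 10, the most alike pattern over the 9 cultures was that of *Cxcl1* and *Cxcl5*, by the root mean square difference in log2 CPM after each gene was centred on its own mean (0.495). Over all genes tested, the closest to *Cxcl1* were *Slfn2* (0.175) and *Upp1* (0.198), and to *Cxcl5* *Dock11* (0.239) and *Nppb* (0.325). *Ccl5* was closest to another chemokine, *Cxcl3* (0.350), and then to *Bcl2l15* (0.510). *Cxcl16* was closest to *Meis1* (0.113) and *Casq2* (0.115), and *Cxcl10* to *Pkd1l1* (0.292). Of the ligands highest in *KD2*, *Cxcl12* was closest to *Rnase10* (0.179) and *Cytip* (0.217), and *Cx3cl1* to *Dok1* (0.0549) and *Stat5a* (0.0578), which encodes the transcription factor of lactogenic differentiation. For *Ccl2*, *Sept4* was at 0.566. The nearest to *Ccl7* were *AI593442* (0.252) and *A330076H08Rik* (0.292) and to *Ccl20* *AC132288.1* (0.386) and *Eng* (0.388). With 3 lines of 3 cultures, likeness mostly means that the means of the lines were spaced alike.

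Of 28 other chemokine genes listed, 6 were tested, and the rest did not pass the filter on low counts. The counts for this and the following lists stand beside shares of all genes tested of 26.9% that rose and 30.0% that fell in *KD1* (9.34% and 7.49% called), and of 34.0% and 33.3% in *KD2* (14.5% and 6.71% called). In *KD1*, 5 of the 6 rose and 0 fell, with *Cxcl2*, *Cxcl3*, *Ppbp* and *Ccl9* called, and in *KD2* 5 rose and 0 fell, with *Cxcl2*, *Cxcl3*, *Ccl9*, *Ccl17* and *Ccl25* called. *Ppbp* reached the limit of the filter only in *KD1* and *Ccl17* only in *KD2*, which weighs on these counts. *Ccl9*, which encodes a ligand of CCR1, had 13, 13 and 12 counts in *WT*, 35, 36 and 26 in *KD1* and 110, 160 and 85 in *KD2*. Unlike *Cxcl2* and *Cxcl3*, it was higher in *KD2* than in *KD1* (3.72-fold, adjusted p = 2.4e-07, edgeR).

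Most of the receptors for these ligands that are given here were near 0 in these cells. *Cxcr3*, *Ccr2* and *Ccr6* had no count in any library, *Ccr1* and *Ccr3* had at most 2, and *Cxcr4* had at most 3. *Cxcr6* had 1 to 8 counts and *Cx3cr1* had 1 to 10. Of 23 receptor genes listed, 4 were tested, and 3 rose in each *KD* line against *WT* with 0 falling. *Cxcr2* reached the limit of the filter only in *KD1* and *Ccr7* only in *KD2*. These counts thus rest in part on genes tested because 1 line was high. *Cxcr2*, the receptor for CXCL1 and CXCL5, had 1, 5 and 4 counts in *WT*, 25, 26 and 25 in *KD1* and 1, 2 and 1 in *KD2*, a rise of 2.64 on the log2 scale in *KD1* (SE 0.351, adjusted p = 1.9e-05, edgeR). It was highest in *KD1*, as *Cxcl1* and *Cxcl5* were, at 0.984 ± 0.0538 CPM (SD, n = 3), and a link between them was not tested. *Ackr3*, the scavenging receptor for CXCL12, had 5.03 ± 0.915 CPM in *WT* (SD, n = 3), 9.75 ± 0.806 CPM in *KD1* and 19.1 ± 2.07 CPM in *KD2*, and rose by 0.95 (adjusted p = 3.9e-05) and 1.91 (adjusted p = 1.8e-08) on the log2 scale. *Ccr7*, the receptor of lymphoid homing, had 1, 5 and 0 counts in *WT*, 7, 9 and 7 in *KD1* and 23, 41 and 23 in *KD2*. For *Ccr10*, the receptor for CCL27 and CCL28, the value was 0.31 on the log2 scale in *KD1* (adjusted p = 0.34), and it rose by 0.67 in *KD2* (adjusted p = 0.033).

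The proteases and cofactors that release CXCL16 and CX3CL1 were expressed in every line. *Adam10* had 196 ± 6.61 CPM in *WT* (SD, n = 3), 371 ± 5.20 CPM in *KD1* and 250 ± 24.3 CPM in *KD2*. It was highest in *KD1*, as *Cxcl16* was, while *Cx3cl1* was highest in *KD2*, and a link to either was not tested. All 4 tested genes of this list rose in *KD1*, *Adam10* by 0.92 (adjusted p = 5.1e-08, edgeR), *Rhbdf2* by 0.50, *Rhbdf1* by 0.41 and *Adam17* by 0.23 on the log2 scale. In *KD2*, *Rhbdf1* (0.51), *Adam17* (0.36) and *Adam10* (0.35) rose, and *Rhbdf2* fell by 0.23 on the log2 scale (adjusted p = 0.013). None of these changes reached a log2 fold change of 1.

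Of 16 receptors and adaptors that induce chemokines, all were tested, and 10 rose and 3 fell in *KD1*, with *Tlr2* and *Ifngr2* called higher. In *KD2*, 8 rose and 7 fell beside 34.0% and 33.3% of all genes, with *Tlr2* called higher. *Tlr2*, a receptor for bacterial lipoproteins, had 8.08 ± 0.299 CPM in *WT* (SD, n = 3), 16.6 ± 0.925 CPM in *KD1* and 18.6 ± 1.66 CPM in *KD2*. *Ifngr2*, a chain of the interferon-γ receptor, had 40.4 ± 2.73, 95.8 ± 3.05 and 46.6 ± 1.35 CPM in the same order. The other chain of that receptor, *Ifngr1*, fell by 0.77 on the log2 scale in *KD1* (adjusted p = 1.1e-07, edgeR) and by 0.35 in *KD2* (adjusted p = 1.4e-04). *Ifnar2*, of the type I interferon receptor, rose by 0.98 in *KD1* (adjusted p = 9.2e-08, edgeR) and 0.68 in *KD2* (adjusted p = 3.4e-06) on the log2 scale, and *Il1r1*, the IL-1 receptor, by 0.44 (adjusted p = 2.9e-04) and 0.91 (adjusted p = 2.2e-07).

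The NF-κB list held 12 factors, kinases and inhibitors, of which 9 rose and 0 fell in *KD1* (26.9% and 30.0% of all genes) and 8 rose and 0 fell in *KD2* (34.0% and 33.3%). *Nfkbiz*, *Nfkbia* and *Tnfaip3*, which encode inhibitors or modulators of the pathway that are themselves induced by it, were called higher in *KD1*. *Nfkbiz*, known as a coactivator of a subset of targets, had 45.4 ± 2.47 CPM in *WT* (SD, n = 3), 178 ± 5.70 CPM in *KD1* and 85.7 ± 7.23 CPM in *KD2*, with log2 fold changes of 1.97 (adjusted p = 2.5e-11, edgeR) and 0.92 (adjusted p = 7.7e-08). *Nfkbia* rose by 1.32 and 0.94, and *Tnfaip3* by 1.30 and 0.80, in *KD1* and *KD2*. *Map3k14*, the kinase of the non-canonical pathway, was the only one called in *KD2* (log2 fold change 1.19, adjusted p = 5.2e-08), and its log2 fold change in *KD1* was -0.15 (adjusted p = 0.18). *Rela* and *Chuk* passed in neither comparison. In the direct comparison of the *KD* lines, 7 of the 12 were lower in *KD2*, among them *Nfkbiz*, *Nfkbia* and *Tnfaip3*. *Map3k14* alone was higher there, beside 33.0% and 34.8% of all genes. Of the chemokines, 5 were lower in *KD2* and 5 higher, and the part of NF-κB in their levels was not tested. The plot shows this list and the next.

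**Figure D5:**
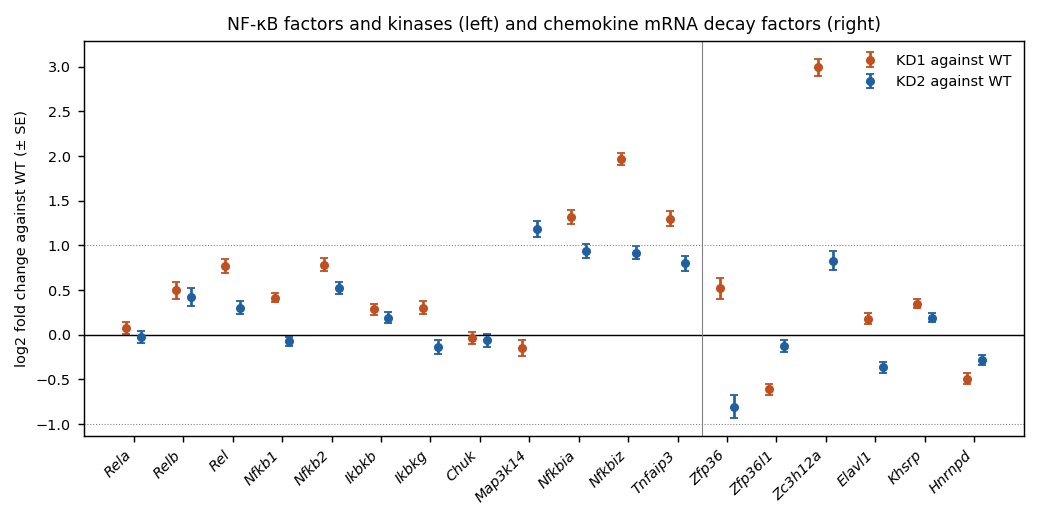
Log2 fold change against *WT* (y axis, whiskers of 1 SE from edgeR) of 12 NF-κB genes (left of the vertical line) and 6 genes for the decay of chemokine mRNA (right), in *KD1* (orange) and *KD2* (blue), which share the same *WT* cultures. Dotted lines mark a log2 fold change of 1 in either direction. *Zc3h12a* in *KD1* is the highest point, at 2.99.

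Chemokine mRNAs are short-lived, and 6 genes that control their decay were read beside them. In *KD1*, 4 rose and 2 fell (26.9% and 30.0% of all genes), and in *KD2* 2 rose and 3 fell (34.0% and 33.3%), so the falls in *KD1* and the rises in *KD2* were near the share of all genes. *Zc3h12a*, which encodes Regnase-1, a nuclease that degrades such mRNAs and is itself an NF-κB target, had 239, 311 and 220 counts in *WT*, 2605, 2408 and 2269 in *KD1* and 504, 553 and 501 in *KD2*. It rose 7.96-fold in *KD1* (adjusted p = 7.8e-12, edgeR) and 1.78-fold in *KD2* (adjusted p = 7.3e-06). *Zfp36*, which encodes tristetraprolin, a destabiliser of AU-rich mRNAs, rose by 0.52 in *KD1* (adjusted p = 0.0015) and fell by 0.80 on the log2 scale in *KD2* (adjusted p = 5.8e-05), while its relative *Zfp36l1* fell by 0.61 in *KD1* (adjusted p = 2.5e-06). *Hnrnpd*, which encodes AUF1, fell by 0.49 in *KD1* (adjusted p = 6.4e-06) and by 0.28 in *KD2* (adjusted p = 6.6e-04).

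Heparan sulfate proteoglycans hold chemokines at the cell surface and in the matrix. Of 9 tested, 2 rose and 7 fell in *KD1* (26.9% and 30.0% of all genes), and 4 rose and 1 fell in *KD2* (34.0% and 33.3%). *Sdc1*, the main syndecan of epithelia, had 484 ± 18.6 CPM in *WT* (SD, n = 3), 1088 ± 20.4 CPM in *KD1* and 414 ± 43.2 CPM in *KD2*, with log2 fold changes of 1.17 (adjusted p = 4.4e-09, edgeR) and -0.23 (adjusted p = 0.0096). *Sdc3* fell by 1.49 on the log2 scale in *KD1* (adjusted p = 5.5e-09). *Hspg2*, which encodes the basement membrane protein perlecan, rose by 1.21 in *KD2* (adjusted p = 2.0e-08), and *Gpc3*, a glypican, rose by 1.42 in *KD1* (adjusted p = 0.0039) and 2.88 in *KD2* (adjusted p = 1.5e-06) from 0.278 CPM in *WT*. In the direct comparison 8 of the 9 were higher in *KD2* than in *KD1* and *Sdc1* was lower, beside 34.8% and 33.0% of all genes.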

How the data were processed

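RNA-seq counts of 9 HC11 cultures, 3 each of *WT*, *KD1* and *KD2*, were grouped by their labels, and 0 columns were left without a culture. The authors deposited raw counts per gene, without normalization. Before that, the authors dropped reads with an average quality under 20 using fastp, aligned what remained to GRCm38 by HISAT2, and had featureCounts sum reads over the exons of each gene. Versions, strand setting and the treatment of reads with several matches are not given in the sources used here.

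The members and gene lists were chosen with earlier results of these data known. One fit of all 9 cultures was made with edgeR 4.0.16 in R 4.3.3 (TMM, filterByExpr on the 3 groups, quasi-likelihood test, Benjamini-Hochberg adjustment over 15253 genes), after a test on simulated data. The filter asks for 0.392 CPM in at least as many cultures as the smallest group holds. Counts of 0 were bounded by 3 counts, per library. Exon lengths, positions and overlaps were taken from GENCODE M21, and CPM per kb divides by the merged exon length. Intervals and bounds cover counting error only. All 10 members were named, with at most 4 genes of each other list that passed with the largest change, the known receptors, the 2 genes most like each member, and, after their values were seen, neighbours in the clusters, genes that complete a count and marker genes. Some genes that this rule names are not reported here. Alternatives were DESeq2 1.42.0, median-of-ratios size factors, library size alone, 2 other filters, the 6 cultures compared, an adjusted p under 0.01, a replicate block and each culture left out.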

Additional observations from a re-analysis of the deposited data

Results flagged for a closer look

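All 10 chemokines differed between the *KD* lines in the direct comparison by edgeR, which is a test of whether their differences from the shared *WT* cultures were unequal. Of them, 5 were higher in *KD2* and 5 lower, where 34.8% and 33.0% of all genes tested were. *Ccl2* and *Ccl7* reached the limit of the filter in *KD2* only. The log2 fold change of *KD2* over *KD1* was -3.80 for *Cxcl1*, -4.05 for *Cxcl5*, -2.51 for *Cxcl16*, -3.82 for *Ccl5* and -0.81 for *Cxcl10*. It was 5.14 for *Cxcl12*, 0.97 for *Cx3cl1*, 3.47 for *Ccl2* and 2.72 for *Ccl20*. *Ccl7* was at least 7.17-fold higher in *KD2*, since *KD1* had no count. The largest adjusted p among them was 0.0076, for *Cxcl10*. Each line is 1 clone, so the difference between the lines and the difference between clones cannot be told apart. For *Cxcl12* and *Ccl20* the differences from *WT* lay on opposite sides of 0, though neither difference of *Ccl20* from *WT* passed with DESeq2.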

How the results depend on the processing

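The 29 fold changes of members were recomputed 448 times, leaving out settings under which a gene was not tested. The direction and the side of the adjusted p threshold stayed as reported in 440 of these, 0 reversed, and the 8 that no longer passed were differences of *Ccl20* or *Ccl2* from *WT*, given above with the *WT* and *KD1* replicates they rest on. The size limit of a call was also crossed without a change of side in p, downward by *Ccl20* in *KD2* without *WT* replicate 2 (0.92), and upward between the *KD* lines by *Cx3cl1* with library size alone (1.09), with at least 10 counts in every culture (1.00) and without *KD2* replicate 2 (1.02), and by *Cxcl10* without *KD2* replicate 1 (-1.01). The cause was not tested. With at least 10 counts in every culture, the genes called went from 2568 to 1319 in *KD1*, from 3235 to 1698 in *KD2* and from 3556 to 1914 between the lines, since rare genes are no longer tested. The chemokines called higher went from 6 to 3 in *KD1*, from 7 to 2 in *KD2* and from 4 to 2 for *KD2* over *KD1*, where *Cx3cl1* was gained and *Ccl2*, *Ccl7* and *Ccl20* were no longer tested. Those called lower in *KD1* went from 2 to 1 under that filter, with DESeq2, with the 6 cultures compared and with an adjusted p under 0.01, and ranged from 1 to 2 with single cultures left out. With the 6 cultures compared, those called higher in *KD1* went from 6 to 5, since *Ccl2*, like *Ccl20*, was not tested there. They also went from 6 to 5 with an adjusted p under 0.01, which *Ccl2* (adjusted p = 0.022, edgeR) did not reach. Cultures with the same replicate number did not deviate together (mean r = -0.0047, from -0.059 to 0.063 over 9 pairs), so the numbers do not pair them. With a replicate block in the fit, 2560, 3227 and 3552 genes were called, 6 and 7 chemokines stayed called higher in *KD1* and *KD2*, and no call of a chemokine changed. Depth limits *Cxcl10*, *Ccl2*, *Ccl7* and *Ccl20*, which had under 100 counts in every library. It also limits the folds of *Ccl5* against *WT*, where no library had more than 8 counts. Over the alternatives, its log2 fold change ran from 6.31 to 7.13 in *KD1* and from 2.48 to 3.30 in *KD2*.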
